A study of Mus musculus with 6 samples.

Results

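The NR4A receptors Nr4a1, Nr4a2 and Nr4a3, the Krüppel-like factors Klf2, Klf4 and Klf6, and the early response genes Dusp1, Ier2, Btg2 and Zfp36 were followed across the hearts of 3 groups of male mice aged 2 months, all labelled with a B6 background. The 10 genes were chosen by name, with earlier results of these data known, so their counts below are a description. Every probe set with one of these names as its only gene symbol was taken, 23 of the 45101 probe sets on the array. RKIP-transgenic mice express RKIP, a protein that inhibits the kinase RAF and G-protein-coupled receptor kinases, from the alpha-MHC promoter, which is active in heart muscle cells. GRK-Inh-transgenic mice express in the myocardium a peptide that inhibits these receptor kinases (GRKs), and B6 control mice are wild type. Each group had 2 Affymetrix arrays, 6 in all. Each transgenic group is 1 mouse line. Separate animals or pools are not named in the labels as the source of the replicate arrays, so a p-value here is set against array-to-array spread that may be technical.

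These genes belong to the early response, the set of genes that cells switch on within minutes of a stimulus from transcription factors already present in the nucleus. NR4A proteins are nuclear receptors that act without a known hormone and are controlled by their own amount, which rises with cAMP, calcium and stress signals, and in the heart with beta-adrenergic stimulation. KLF2 and KLF4 are zinc finger factors known for their role in vascular cells, and KLF6 responds to injury. DUSP1 removes the phosphates that activate MAP kinases, ZFP36 binds AU-rich elements and speeds the decay of short-lived messengers, BTG2 restrains proliferation and recruits the deadenylase that shortens poly(A) tails, and IER2 is a small nuclear protein. Such transcripts are short-lived, so their level follows recent signalling closely.

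Promoter sequences are shown for 6 of the genes, because cAMP acts on early response genes through the cAMP response element bound by CREB, and serum response factor acts on them through the CArG box. Of the 10 genes, 9 matched a promoter in the RefSeq table (GRCm38.p6). Each line gives the 250 bases before the annotated start, 5′ to 3′ on the gene's strand, with capitals marking the full element TGACGTCA, its shorter form TGACG on either strand and the CArG box. The full element is palindromic and holds 2 overlapping copies of the shorter form. The sequences lie at chr15:101266596-101266845 (+ strand) for Nr4a1, chr2:57124004-57124253 (- strand) for Nr4a2, chr4:48045055-48045304 (+ strand) for Nr4a3, chr17:26508473-26508722 (- strand) for Dusp1, chr1:134079156-134079405 (- strand) for Btg2 and chr7:28379229-28379478 (- strand) for Zfp36. The sequence of Nr4a1 and most of that of Nr4a3 lie within the annotated gene, downstream of its first annotated base.
Nr4a1: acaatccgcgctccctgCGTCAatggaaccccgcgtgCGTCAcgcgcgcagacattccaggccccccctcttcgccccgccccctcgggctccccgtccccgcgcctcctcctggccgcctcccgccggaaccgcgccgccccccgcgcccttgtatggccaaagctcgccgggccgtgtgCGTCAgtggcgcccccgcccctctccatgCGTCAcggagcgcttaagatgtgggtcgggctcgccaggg
Nr4a2: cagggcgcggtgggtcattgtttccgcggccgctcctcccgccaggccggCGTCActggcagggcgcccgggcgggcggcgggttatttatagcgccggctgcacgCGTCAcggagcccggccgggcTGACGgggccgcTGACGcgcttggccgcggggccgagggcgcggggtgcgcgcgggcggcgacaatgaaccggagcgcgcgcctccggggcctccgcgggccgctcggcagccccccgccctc
Nr4a3: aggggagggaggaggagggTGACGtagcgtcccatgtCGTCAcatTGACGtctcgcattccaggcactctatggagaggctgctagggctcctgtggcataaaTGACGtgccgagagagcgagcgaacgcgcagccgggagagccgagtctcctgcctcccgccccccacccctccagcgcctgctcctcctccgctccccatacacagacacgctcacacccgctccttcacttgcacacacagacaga
Dusp1: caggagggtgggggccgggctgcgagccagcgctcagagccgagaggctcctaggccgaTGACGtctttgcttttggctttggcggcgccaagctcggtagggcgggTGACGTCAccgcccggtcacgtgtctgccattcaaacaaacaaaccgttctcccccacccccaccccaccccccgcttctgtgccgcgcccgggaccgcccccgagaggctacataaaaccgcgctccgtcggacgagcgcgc
Btg2: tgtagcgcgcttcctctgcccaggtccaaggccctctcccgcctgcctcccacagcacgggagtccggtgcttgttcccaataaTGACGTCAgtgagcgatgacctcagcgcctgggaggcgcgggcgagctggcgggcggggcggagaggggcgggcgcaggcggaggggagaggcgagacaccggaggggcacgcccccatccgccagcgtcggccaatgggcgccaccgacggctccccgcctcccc
Zfp36: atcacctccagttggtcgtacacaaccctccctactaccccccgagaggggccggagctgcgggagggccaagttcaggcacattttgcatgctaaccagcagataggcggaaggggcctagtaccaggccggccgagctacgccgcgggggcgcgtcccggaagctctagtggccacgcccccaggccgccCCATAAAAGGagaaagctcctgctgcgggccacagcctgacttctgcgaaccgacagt
The full element stood in the promoters of Dusp1, 143 to 136 bases before the start, and Btg2, 166 to 159 bases before it, whereas 1.55% of the 32851 promoters in the table held it. Each of the 3 NR4A promoters held 4 shorter forms, a number that was singled out after the sequences had been seen and that 0.137% of all promoters reached. Dusp1 held 3 and Btg2 held 2, counting those within the full element, Klf2 and Klf4 held 1 each, and Klf6 and Zfp36 held none. At least 1 shorter form stood in 7 of the 9 promoters and in 17.8% of all promoters. Zfp36 alone among the 9 held a CArG box, 58 to 49 bases before its start, a match found in 1.47% of all promoters. The promoters printed are thus those with the most shorter forms or a CArG box, and those of Klf2, Klf4 and Klf6 are not shown. The EGR site GCGNGGGCG stood in 6 of the 9 (4.7% of all) and the box CCNCNCCC, which KLF proteins can bind, in 9 of 9 (45.9% of all). The AP-1 site TGANTCA (6.75% of all) and the NR4A response element AAAGGTCA (1.34% of all) had no match in the 9, and TATAAA had a match in Nr4a2 (12.4% of all). The 9 promoters are rich in G and C, at 63.6% to 80.0%, against a median of 52.4% over the table, and how far base composition sets these counts was not tested.

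**Figure D1:**
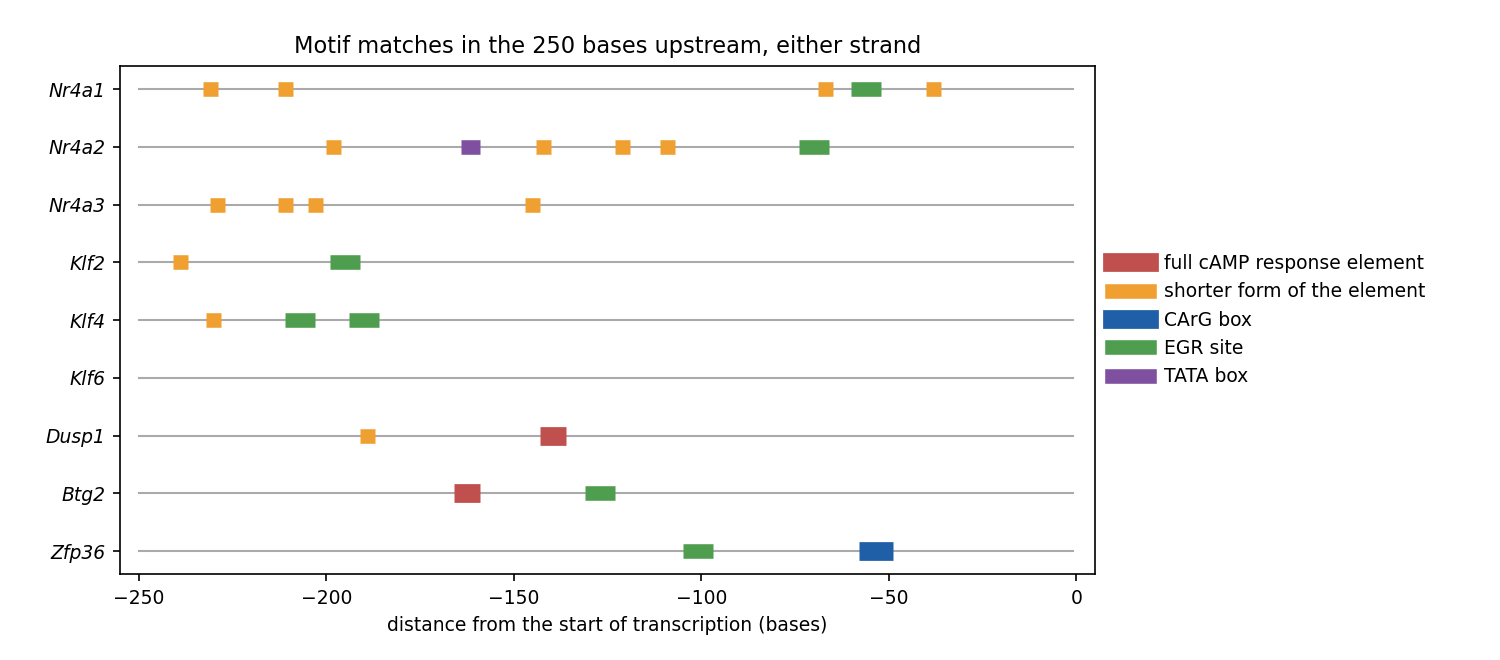
Position of motif matches on either strand in the 250 bases upstream of the annotated start of 9 of the genes; the horizontal axis is the distance from the start in bases and each colour is a motif, with shorter forms inside a full cAMP response element drawn as the full element and the KLF box left out. Full elements are drawn for Dusp1 and Btg2, 4 shorter forms for each NR4A gene, and a CArG box for Zfp36.

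The deposited signals are linear values scaled to the same trimmed mean on every array, and differences below are in log2 of the signal plus 50, fitted with limma over all 11254 genes tested, with Benjamini-Hochberg adjusted p-values over those genes. A gene was called at an adjusted p under 0.05. The added 50 makes a fold change on this scale smaller than the ratio of signals, most of all for dim genes. The main probe set of all 10 genes passed the filter, a mean at the level of a signal of 50.2, and all 3 group means of each gene reached it. Every one of the 10 cardiomyocyte markers, such as Myh6 and Tnnt2, was tested. Their summed signal was 279500 on both GRK-Inh arrays, 286400 and 290100 on the RKIP arrays and 288900 and 297900 on the control arrays. Against control, 0 rose and 1 fell with RKIP (Actc1, -0.12, adjusted p = 0.0323). With GRK-Inh 0 rose and 1 fell (Ckm, -0.13, adjusted p = 0.0219), or 0 and 3 at an unadjusted p under 0.05 by limma. Pebp1, the mouse gene of RKIP, had signals of 8766 to 9296 and was not called in any comparison (RKIP-transgenic against control 0.015 ± 0.041 SE, adjusted p = 0.866), which does not test a transgene that these probes may not see. The actin control's 3′ probe set exceeded its 5′ probe set by a ratio that was 2.92 to 3.03 on the 4 transgenic arrays and 3.12 and 3.25 on the control arrays. The same ratio for the GAPDH control was 0.955 to 1.02 on the transgenic arrays and 1.03 and 1.08 on the control arrays. The part of these ratios in the results was not tested.

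Setting GRK-Inh-transgenic hearts against control hearts asks which early response transcripts go with inhibition of receptor kinases in the myocardium. Most of the set was higher: 8 of the 10 genes rose and 0 fell. Of all genes tested, 5.85% rose and 7.25% fell, a split that turned from 44.6% to 60% higher among called genes when arrays were shifted to the same median. At an unadjusted p under 0.05, limma gave 9 higher and 0 lower among the 10. The share of all genes at that unadjusted threshold is not given, for this or the later unadjusted counts. The median difference of the 10 genes was 0.76, against -0.031 over all genes tested. For all 10 genes both GRK-Inh arrays lay above both control arrays, as they did for 23.7% of all genes tested. The comparison of RKIP-transgenic with control hearts, which asks the same of the RKIP transgene, gave 1 gene that rose, Nr4a1, and 1 that fell, Dusp1. In that comparison 5.32% of all genes rose and 5.52% fell, and the median difference of the 10 was -0.029 against -0.017 over all genes. At an unadjusted p under 0.05 there were 1 higher and 3 lower. Between the lines, 8 of the 10 were lower with RKIP than with GRK-Inh and 0 were higher, by limma, with the same counts at an unadjusted p under 0.05. Of all genes, 4.37% were lower and 4.47% higher there, and the share of higher among called genes went from 50.6% to 34.7% with arrays shifted to the same median. All 10 genes had both RKIP arrays below both GRK-Inh arrays, as did 23.2% of all genes. Each line is compared with the same control arrays, and the direct comparison reuses the transgenic arrays, so the 3 comparisons are not independent.

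**Figure D2:**
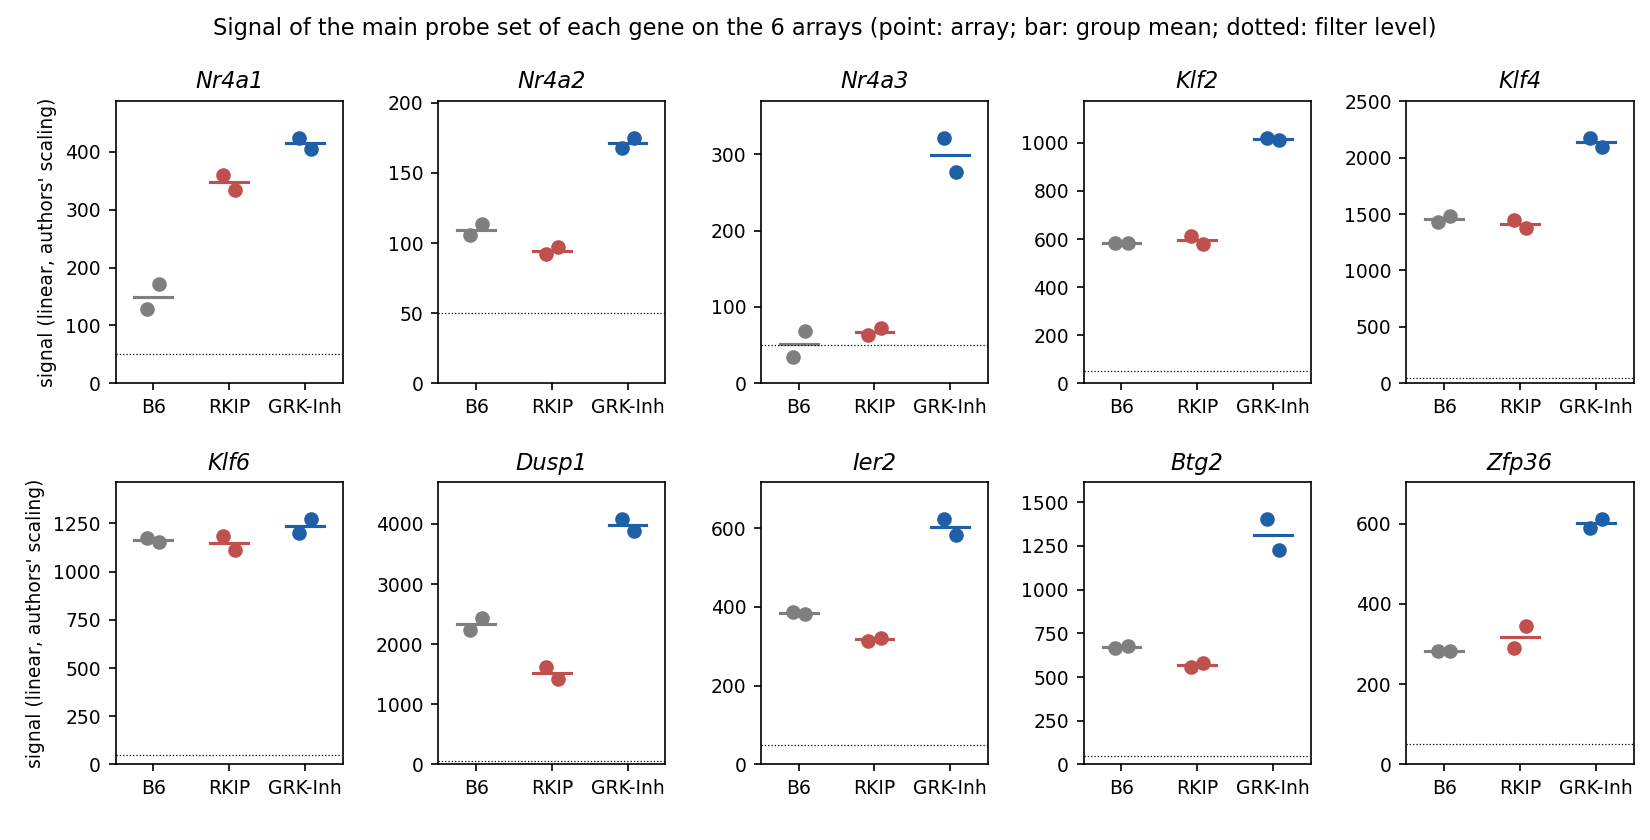
Signal (linear, vertical axis from 0) of the main probe set of each gene on the 6 arrays; points are arrays, bars are means of 2 arrays and the dotted line is the filter level of 50.2. The GRK-Inh arrays are the highest in all 10 panels, and only for Nr4a1 are the RKIP arrays also far above the controls. Mean signals of Nr4a1 are 347 with RKIP, 415 with GRK-Inh and 149 in control hearts.

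**Figure D3:**
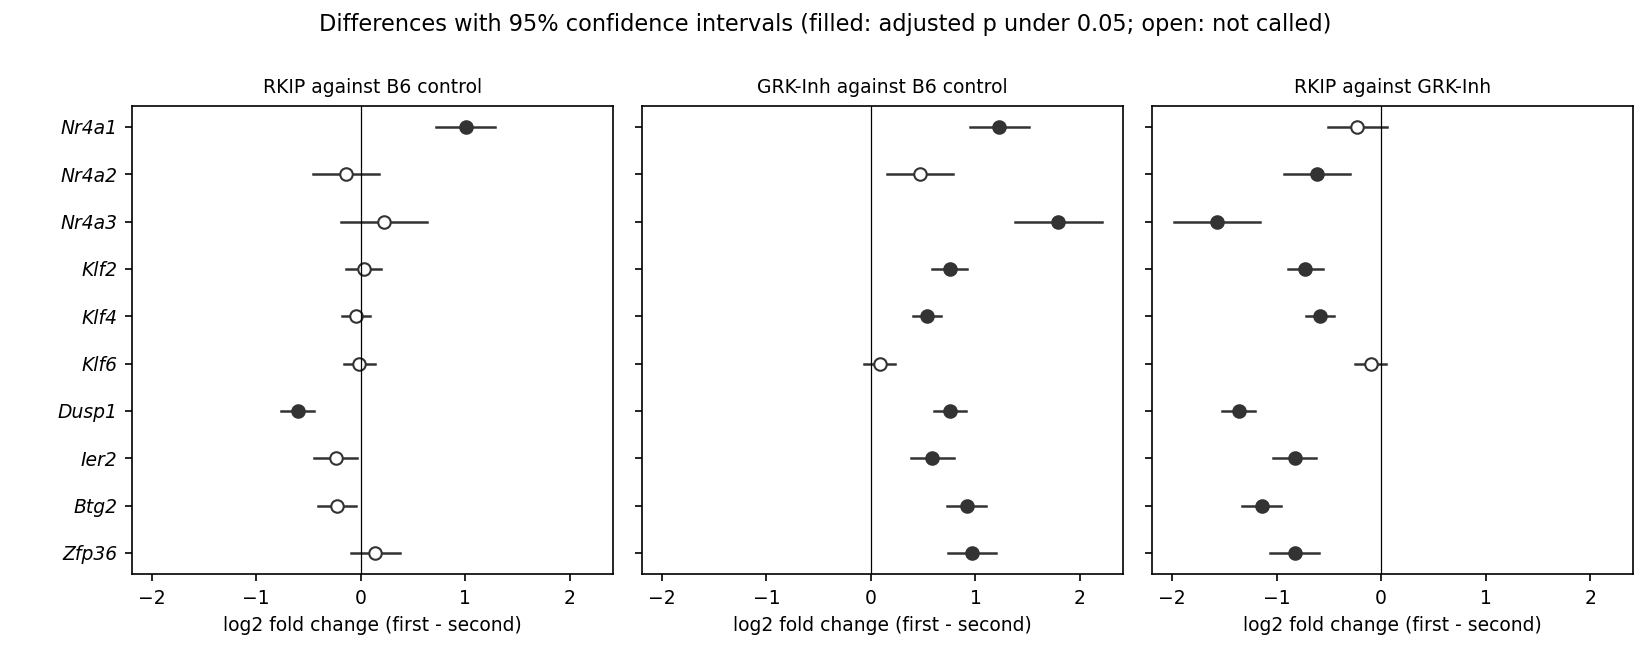
Log2 fold change (horizontal axis, log2 of signal plus 50, first group minus second) of each gene with its 95% confidence interval in the 3 comparisons; filled points were called and open points were not. In GRK-Inh-transgenic against control hearts 8 points are filled to the right of 0, in RKIP-transgenic against control hearts Nr4a1 is filled to the right and Dusp1 to the left.

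Nr4a1 encodes NUR77, a receptor of the NR4A family. Its signals were 361 and 334 in RKIP-transgenic, 425 and 404 in GRK-Inh-transgenic, and 128 and 171 in control hearts. All 4 transgenic arrays lay above both controls. It rose by 1.00 ± 0.13 (log2, ± SE, adjusted p = 0.000655) with RKIP and by 1.23 ± 0.13 (adjusted p = 0.000122) with GRK-Inh, or 0.65 and 0.82 with an offset of 200. The difference between the lines was not called, at -0.23 (95% interval -0.51 to 0.056, adjusted p = 0.326), although both RKIP arrays lay below both GRK-Inh arrays. Nr4a1 was the only one of the 10 genes called higher in RKIP-transgenic hearts, and its difference there exceeded that of 99.8% of all genes tested.

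Nr4a3, which encodes NOR1, another receptor of the family, had signals of 62.8 and 72.4 in RKIP-transgenic, 322 and 276 in GRK-Inh-transgenic, and 34.9 and 68.9 in control hearts. The RKIP and control arrays overlapped near the filter level, and the GRK-Inh arrays stood well above both. In GRK-Inh-transgenic hearts it rose by 1.79 ± 0.19 (adjusted p = 0.000122), the largest difference among the 10 genes in this comparison, from a mean signal of 51.9 ± 24.0 to 299 ± 32.2 (SD, n = 2). The size depended on the offset, at 0.99 with 200. In RKIP-transgenic hearts the difference was 0.23 (95% interval -0.19 to 0.64, adjusted p = 0.50). The lines differed by -1.57 ± 0.19 (adjusted p = 0.000554), or -0.90 with an offset of 200. The other 2 probe sets of Nr4a3 gave signals of 1.12 to 16.4 on the 6 arrays, below the filter level, and showed no such difference (-0.064 ± 0.12 and -0.035 ± 0.10 with GRK-Inh).

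Nr4a2, which encodes NURR1, the receptor needed by dopamine neurons, was dim. Its main probe set had signals of 92.0 and 97.1 in RKIP-transgenic, 168 and 175 in GRK-Inh-transgenic, and 106 and 114 in control hearts. The 3 groups were ordered RKIP, control and GRK-Inh with no overlap. Against control the difference was 0.47 ± 0.14 with GRK-Inh and did not pass (adjusted p = 0.054, with a range of 0.0255 to 0.936 over the alternatives), and it was -0.14 ± 0.14 with RKIP (adjusted p = 0.59). Between the lines it was called lower in RKIP-transgenic hearts (-0.62 ± 0.14, adjusted p = 0.024), a call lost when any 1 of the 4 transgenic arrays was left out (adjusted p 0.0792 to 0.126), without a filter (0.076) and with the mean over all probe sets (-0.16, adjusted p = 0.612). The main probe set is of a kind that can match several transcripts. Of the other 5 probe sets, 1 passed the filter, with signals of 68.6 to 129 in GRK-Inh-transgenic and 76.3 to 126 in control hearts, and did not show the difference (-0.034 ± 0.26).

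Klf2, the gene of a factor that endothelial cells raise under flow, had signals of 612 and 578 in RKIP-transgenic, 1022 and 1013 in GRK-Inh-transgenic, and 583 and 583 in control hearts. The GRK-Inh arrays stood apart, and the RKIP arrays spanned the controls. It rose by 0.76 ± 0.076 with GRK-Inh (adjusted p = 9.72e-05) and had a difference of 0.027 with RKIP (95% interval -0.14 to 0.20, adjusted p = 0.869). The lines differed by -0.73 ± 0.076 (adjusted p = 0.000196).

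Klf4, which encodes a factor of vascular and stem cells, was also highest in GRK-Inh-transgenic hearts. Its main probe set gave 1445 and 1380 in RKIP-transgenic, 2179 and 2098 in GRK-Inh-transgenic, and 1426 and 1488 in control hearts. It rose by 0.54 ± 0.060 with GRK-Inh (adjusted p = 0.000194) and had a difference of -0.043 with RKIP (95% interval -0.18 to 0.090, adjusted p = 0.716), and the lines differed by -0.58 ± 0.060 (adjusted p = 0.00018). A second probe set, with signals of 766 and 690 in GRK-Inh-transgenic and 362 and 412 in control hearts, rose by 0.83 ± 0.10 (adjusted p over probe sets past the filter = 0.00077). Both probe sets of Klf4 were called in the same direction.

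Klf6 was the member that moved least. Its main probe set gave 1185 and 1114 in RKIP-transgenic, 1199 and 1274 in GRK-Inh-transgenic, and 1173 and 1152 in control hearts. It was not called with GRK-Inh (0.085, 95% interval -0.064 to 0.23, adjusted p = 0.453) or with RKIP (-0.016, 95% interval -0.17 to 0.13, adjusted p = 0.918). Of its 4 other probe sets, 3 had differences of 0.12 to 0.27 with GRK-Inh and the dimmest -0.087, and none of the 4 was called against control. A single one of them was called between the lines, lower with RKIP than with GRK-Inh (-0.40 ± 0.10, adjusted p over probe sets past the filter = 0.0403).

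**Figure D4:**
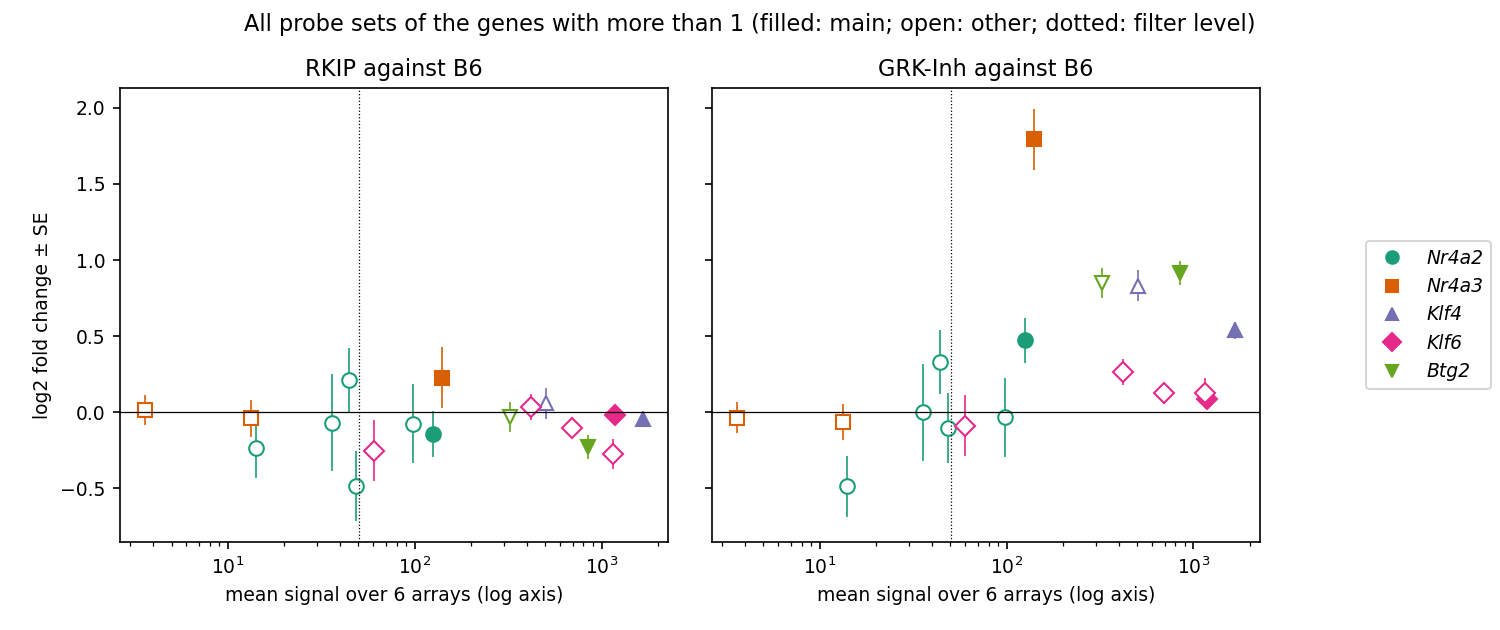
Log2 fold change against control (vertical axis, ± SE) of every probe set of the 5 genes that have more than 1, against its mean signal over 6 arrays (log axis); filled symbols are the main probe sets and the dotted line is the filter level of 50.2. Both probe sets of Klf4 and of Btg2 lie above 0 with GRK-Inh, while the dim probe sets of Nr4a2 and Nr4a3 scatter around 0.

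Dusp1, the phosphatase that switches off p38, JNK and ERK kinases, moved in opposite directions in the lines. Its signals were 1621 and 1423 in RKIP-transgenic, 4085 and 3883 in GRK-Inh-transgenic, and 2238 and 2441 in control hearts. The 3 groups did not overlap. It fell by 0.61 on the log2 scale with RKIP (± 0.071, adjusted p = 0.000367) and rose by 0.76 ± 0.071 with GRK-Inh (adjusted p = 5.71e-05). The lines differed by -1.36 ± 0.071 (adjusted p = 1.05e-06), and mean signals were 1522 ± 140 against 3984 ± 142 (SD, n = 2). Both calls against control held under all 20 alternative settings, with differences of -0.70 to -0.51 and of 0.70 to 0.82.

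Btg2 had signals of 555 and 578 in RKIP-transgenic, 1405 and 1224 in GRK-Inh-transgenic, and 668 and 676 in control hearts. The RKIP arrays lay just below the controls and the GRK-Inh arrays far above them. It rose by 0.92 ± 0.083 with GRK-Inh (adjusted p = 4.93e-05), while the difference of -0.23 ± 0.083 with RKIP did not pass (adjusted p = 0.115, 0.0863 to 0.384 over the alternatives). The lines differed by -1.14 ± 0.083 (adjusted p = 1.24e-05). Its other probe set rose by 0.85 ± 0.10 with GRK-Inh (adjusted p over probe sets past the filter = 0.000825).

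Ier2 showed the same order, with signals of 313 and 321 in RKIP-transgenic, 623 and 581 in GRK-Inh-transgenic, and 388 and 381 in control hearts. It rose by 0.59 ± 0.093 with GRK-Inh (adjusted p = 0.0019). With RKIP the difference of -0.24 ± 0.093 did not pass (adjusted p = 0.131, 0.0921 to 0.327 over the alternatives). Both RKIP arrays lay below the controls, and the share of all genes for which this held is not given, here or for the genes above. The lines differed by -0.83 ± 0.093 (adjusted p = 0.000339).

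Zfp36, the gene of tristetraprolin, had signals of 290 and 346 in RKIP-transgenic, 590 and 612 in GRK-Inh-transgenic, and 283 and 284 in control hearts. The GRK-Inh arrays lay far above the other 4. It rose by 0.97 ± 0.11 with GRK-Inh (adjusted p = 0.000166), from a mean signal of 283 ± 0.751 to 601 ± 15.6 (SD, n = 2). With RKIP the difference was 0.14 (95% interval -0.094 to 0.37, adjusted p = 0.46), and the lines differed by -0.83 ± 0.11 (adjusted p = 0.000789).

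Related genes outside the 10 were read from lists, and their counts describe the lists without a test of them. Of 23 tested AP-1, EGR and other immediate early genes, 10 rose and 2 fell with GRK-Inh (median 0.45), and 1 rose and 1 fell with RKIP (median -0.092). Fos, a subunit of AP-1, had signals of 838 and 880 in GRK-Inh-transgenic and 72.9 and 108 in control hearts and rose (2.70 ± 0.15). In RKIP-transgenic hearts, at 57.3 and 44.4, it was not called (-0.47, adjusted p = 0.0781). Egr1, a zinc finger factor induced by ERK signalling, rose with GRK-Inh (1.47 ± 0.076) and fell by 1.07 ± 0.076 with RKIP, so that, like Dusp1, it was called in opposite directions. Ccn1, a matricellular gene, was called higher in both lines (0.52 ± 0.11 with RKIP and 0.96 ± 0.11 with GRK-Inh). Between the lines, 10 of the 23 were lower with RKIP and 1, Gadd45a, was higher (1.04 ± 0.090).

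MAP kinase phosphatases other than Dusp1 were also higher with GRK-Inh: 4 of 5 tested rose and 0 fell (median 0.42, and 4 and 0 at an unadjusted p under 0.05 by limma). Dusp8 and Dusp16, which act mainly on JNK and p38, rose by 0.78 and 0.60. Dusp6, which acts on ERK, rose by 0.42 with GRK-Inh and fell by 0.25 with RKIP (adjusted p = 0.0363), where 0 phosphatases rose and 1 fell (median -0.14, and 1 and 1 at an unadjusted p under 0.05 by limma). The rest of the KLF family gave calls in both directions: of 10 tested, 1 rose and 2 fell with GRK-Inh (median -0.017), and 1 rose and 3 fell with RKIP (median -0.053). Klf10, a gene induced by TGF-beta, fell by 0.65 with GRK-Inh and by 0.57 with RKIP, and Klf15, a regulator of cardiac metabolism, rose by 0.36 and 0.48.

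Relatives and partners of Zfp36 and Btg2 gave few calls. Of 8 tested, 1 rose and 0 fell with GRK-Inh (median -0.016, and 2 and 1 at an unadjusted p under 0.05 by limma), and 0 rose and 1 fell with RKIP (median -0.048, and 0 and 1 unadjusted). The genes called were Tob2, from the BTG and TOB family (0.24 with GRK-Inh), and Cnot6, a deadenylase subunit (-0.31 with RKIP). Among 22 factors upstream of early response genes, 1 rose and 2 fell with GRK-Inh (median 0.014), and 0 rose and 1 fell with RKIP (median -0.11, and 0 and 5 at an unadjusted p under 0.05 by limma). Creb1, the gene of CREB, rose by 0.29 with GRK-Inh (adjusted p = 0.0274), Mef2c fell by 0.29, and Elk3 fell in both lines (-0.46 with GRK-Inh and -0.61 with RKIP).

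Genes described as targets of the 10 were mixed. Of 16 metabolic genes described as NR4A targets in muscle, 4 rose and 1 fell with GRK-Inh (median 0.083), and 4 rose and 2 fell with RKIP (median 0.072). Lpin1, the gene of a phosphatidate phosphatase, rose by 0.45 and 0.25 and Fbp2, of muscle fructose bisphosphatase, by 0.31 and 0.35, while Ucp3, of a mitochondrial uncoupling protein, fell by 1.12 and 1.29. Pdk4, the kinase that limits glucose oxidation, rose by 0.35 with GRK-Inh and fell by 0.89 with RKIP. Of 11 genes described as KLF2 or KLF4 targets in vascular cells, 3 rose and 3 fell with GRK-Inh (median 0.15), and 2 rose and 2 fell with RKIP (median -0.039). Cdkn1a, the gene of the cell cycle inhibitor p21, and Adamts1, of a matrix protease, rose by 1.01 and 0.54 with GRK-Inh. Tek (-0.39) and Ptgds (-0.32) were among the genes that fell with it. Nos3, of the endothelial nitric oxide synthase, had a difference of 0.15 (adjusted p = 0.366) and was named after its value had been seen. Of 15 transcripts described as ZFP36 targets, 6 were bright enough to be tested: 1 rose (Vegfa, 0.36) and 1 fell (Hif1a, -0.37) with GRK-Inh (median 0.14), and 0 rose and 0 fell with RKIP (median 0.023, and 1 and 1 at an unadjusted p under 0.05 by limma).

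**Figure D5:**
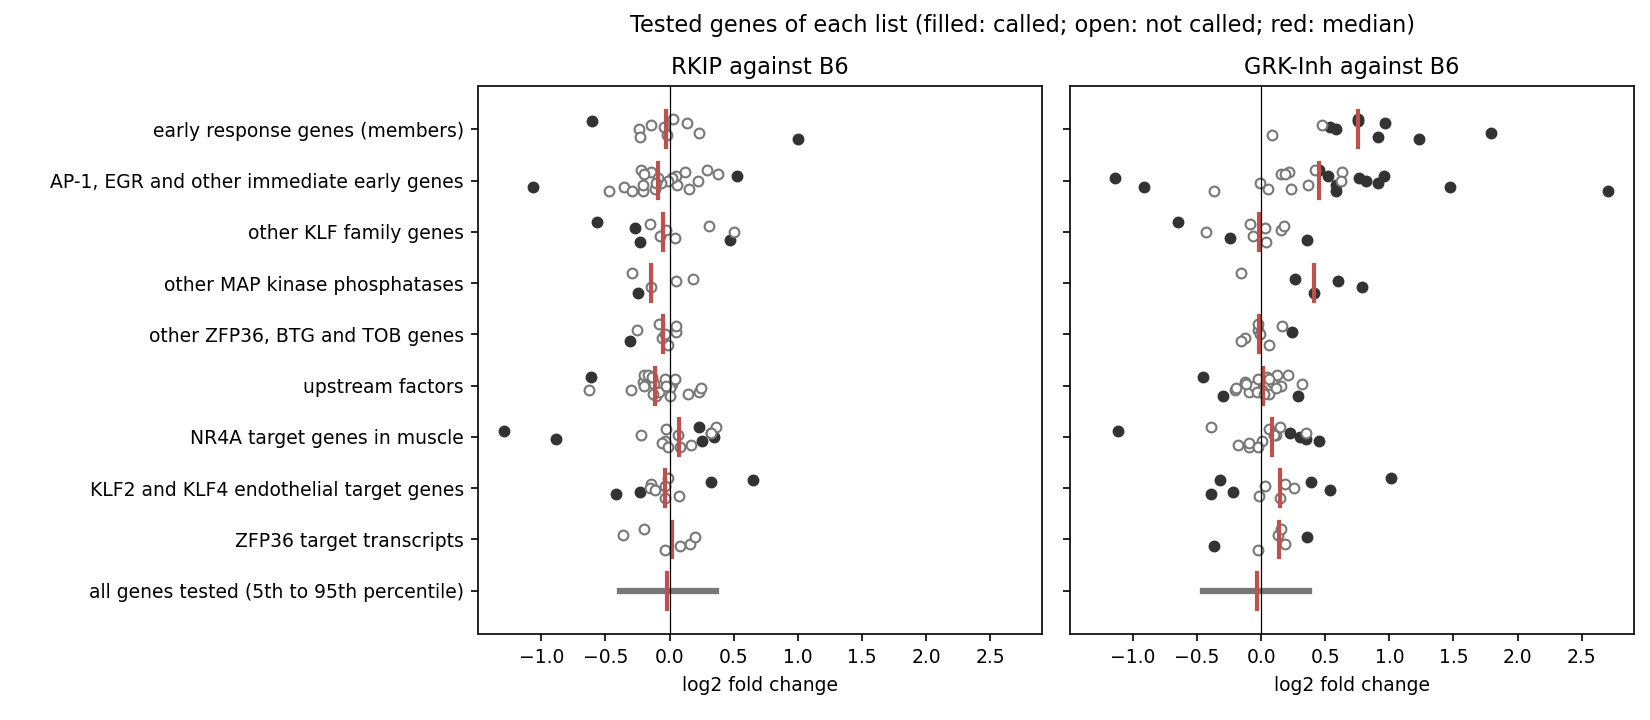
Log2 fold change against control (horizontal axis) of each tested gene of the 10 early response genes and of 8 lists of related genes, with called genes filled and list medians in red; the bottom bar spans the 5th to the 95th percentile of all 11254 genes tested. With GRK-Inh the medians of the early response genes (0.76), the immediate early genes (0.45) and the MAP kinase phosphatases (0.42) lie to the right of the other lists.

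Markers of other cells were read beside these results. In bulk tissue fewer cells of a type and less RNA per cell cannot be told apart. Endothelial markers, 11 of 11 tested, had summed signals of 9158 to 9486 in GRK-Inh-transgenic, 8020 to 8153 in RKIP-transgenic and 9341 to 9454 in control hearts. With GRK-Inh 1 of them rose and 2 fell (3 and 3 at an unadjusted p under 0.05 by limma). With RKIP 0 rose and 2 fell (0 and 6 at an unadjusted p under 0.05 by limma). The range of the endothelial sum in GRK-Inh-transgenic hearts thus overlapped that of the controls, and both RKIP arrays lay below it. Between the lines, 4 of the 11 were lower with RKIP, among them Kdr (-0.49) and Cldn5 (-0.53), and 0 were higher (4 lower and 1 higher at an unadjusted p under 0.05 by limma). Fibroblast markers were lower in both lines (8 of 10 fell with GRK-Inh and 7 with RKIP), at sums of 37800 to 38230 and 40390 to 40650 against 53570 to 56180. Smooth muscle and pericyte markers gave 36300 to 36490 and 37940 to 38370 against 41740 to 43320 (5 of 10 fell with GRK-Inh, and 6 fell and 1 rose with RKIP). Of the macrophage and neutrophil markers, 2 of 9 tested fell with GRK-Inh and 1 with RKIP, at sums of 10630 to 10660 and 11820 to 12300 against 12460 to 12810, and the neutrophil genes S100a8 and S100a9 were below the filter level. Of 3 lymphocyte markers tested, 2 rose with GRK-Inh, 1 fell with RKIP (Ighm, -0.51, adjusted p = 0.0193), and all 3 were lower with RKIP than with GRK-Inh. Jchain and Ms4a1 passed the filter only through their GRK-Inh signals, 150 and 246 for Jchain and 96.4 and 93.2 for Ms4a1. Jchain had 39.3 and 32.6 with RKIP and 37.5 and 60.7 in control hearts. Ms4a1 had 35.1 and 37.4 with RKIP and 64.4 and 35.3 in control hearts. The lymphocyte counts thus lean on the filter. The lymphocyte list's sum with GRK-Inh was 1244 to 1344 against 373 to 388 in control and 267 to 325 in RKIP-transgenic hearts. Ighm, an immunoglobulin chain, made up most of it, and Cd3e, Cd3d, Cd4, Cd8a, Cd79a and Cd79b were below the filter level. Platelet and red cell markers gave sums of 1067 to 1278 over the 6 arrays. The 3 tested were the platelet genes Pf4, Ppbp and Itga2b, and 0 of them were called in either line (0 at an unadjusted p under 0.05 by limma). Red cell genes were not tested, with the haemoglobin gene Hba-a1, Alas2 and Slc4a1 below the filter level, so the calls say nothing of red cells. Between the lines, 1 of 10 fibroblast markers was higher with RKIP and 0 lower, 3 of 10 smooth muscle and pericyte markers were higher and 2 lower, and 2 of 9 macrophage and neutrophil markers were higher and 0 lower (1 and 0, 4 and 3, and 3 and 0 at an unadjusted p under 0.05 by limma). The part of these cells in the results on the 10 genes was not tested.

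The genes most like each of the 10 in pattern were found by the root mean square difference between their log2 values and its own over the 6 arrays, each centred on its mean. Closest to Nr4a1 were Frmd5 (0.147), the natriuretic peptide gene Nppb (0.152) and the cAMP phosphodiesterase gene Pde7a (0.165), where the values of Nr4a1 itself had a root mean square of 0.543. Nppb was 1.14 and 1.52 higher with RKIP and GRK-Inh. Closest to Nr4a3 was the zinc finger gene Zbtb16 (0.109 against 0.812 for Nr4a3 itself), which was 1.79 higher with GRK-Inh and 0.092 with RKIP. The gene closest to Dusp1 was Btg2 (0.176 against 0.561), followed by P4ha1, which encodes a collagen prolyl hydroxylase subunit (0.181). Btg2 in turn was nearest to Ier5 (0.0798), the kinase gene Sgk1 (0.0827) and Noct (0.0893), against 0.497 for Btg2 itself. Zfp36 had the small heat shock gene Hspb1 (0.0935), the chaperone gene Dnajb4 (0.0966) and Ddit4, an inhibitor of mTORC1 signalling (0.0989), as neighbours, against 0.431. For Ier2 the nearest was Rc3h1, which encodes the RNA decay protein Roquin-1 (0.0369 against 0.349). Klf2 lay nearest to Rab30 (0.0436) and Atf3 (0.0483), against 0.350, and Klf4 to Rasgef1b (0.0392) and Tent5a (0.0409), against 0.266. Nr4a2 also had Tent5a (0.0441), and then Ms4a6b (0.0493) and Dusp6 (0.0533), as its nearest, against 0.265. Klf6 lay nearest to Zcchc17 (0.0151 against 0.0568 for Klf6 itself), and genes picked as near to one that moves little must move little too. In the same way the differences of Nppb and Zbtb16 follow from how these genes were picked, and they are a description.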

How the data were processed

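Signal intensities of 6 Affymetrix arrays, 2 per group, were used as the authors deposited them: linear values per probe set, computed with GCOS per the submitters' processing notes, whose version is not given in the sources used here, with a trimmed mean of 300.002 on every array. Groups and replicates came from the titles. Gene symbols came from GEO's platform annotation, updated through gene identifiers in RefSeq's table; 34945 probe sets had 1 symbol, 932 several and 9160 none. The offset added before taking log2 was 50. The probe set of highest mean stood for each of 18193 genes, and the 11254 genes with a mean log2 value of at least 6.65, the median over non-control probe sets, were tested.

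All 3 groups were fitted together with limma 3.58.1 in R 4.3.3, with variances moderated along a trend (3 residual degrees of freedom, median SE 0.115), two-sided. The code was tested on simulated data. The number of arrays limits the precision. The 10 genes, the lists and the tests were chosen with earlier results of these data known. Genes of lists were named by rule: per list and comparison, the 3 largest differences among called genes or, failing any call, the 2 brightest genes, besides the 3 genes nearest in pattern to each of the 10; any of these could be left unnamed. Lists were described by counts and medians. Alternatives covered the scaling, offset, filter, probe set choice, variance model, threshold, arrays fitted, replicate block and each array left out. Figures were drawn with matplotlib 3.10.9.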

Additional observations from a re-analysis of the deposited data

Results flagged for a closer look

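By the direct test (limma, 2 arrays each), 8 of the 10 genes differed between the lines, all with the RKIP line below the GRK-Inh line. Of all genes tested, 4.37% were called lower with RKIP in this test and 4.47% higher. The log2 differences were -1.57 for Nr4a3, -1.36 for Dusp1, -1.14 for Btg2, -0.83 for Ier2, -0.83 for Zfp36, -0.73 for Klf2, -0.62 for Nr4a2 and -0.58 for Klf4. Dusp1 is the only one of them that was called against control in both lines, in opposite directions. The call of Nr4a2 was lost under 7 of 19 alternatives, among them the mean over all probe sets (-0.16). Each transgenic group is 1 mouse line, so a difference between the lines cannot be assigned to the transgenes alone. With 2 arrays a group, which may be technical replicates, no array could be tested as an outlier.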

How the results depend on the processing

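Each value was recomputed under 20 alternatives, except that Nr4a2 and Nr4a3 had no value with a filter at the 75th percentile and Nr4a3 none with the mean over probe sets. Of the 591 values of single genes so obtained, 579 stayed on their side of the threshold, 7 lost and 5 gained a call, each of them of Nr4a2, and 0 called values changed sign. The sign changed in 4 values called in neither fit. Among the 10 genes, 1 higher and 1 lower with RKIP were counted in every alternative, 7 to 9 higher and 0 lower with GRK-Inh, and 6 to 8 lower and 0 higher between the lines. Nr4a2 against control passed with GRK-Inh after quantile normalization (0.52), with arrays shifted to the same median (0.52), with an offset of 200 (0.26) and when variances had no trend (adjusted p = 0.0255).

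Counts over all genes moved more, from 1220 with RKIP, 1474 with GRK-Inh and 995 between the lines. A variance without trend gave 293, 726 and 251, and an adjusted p under 0.01 gave 522, 771 and 418. An adjusted p under 0.10 gave 2244 with GRK-Inh and 1510 between the lines, the mean over probe sets 756 with RKIP and 618 between the lines, and no filter 619 between the lines. Leaving out 1 array gave 624 to 1137, 904 to 1484 and 476 to 876, with fewer samples in the fit. Other causes were not tested. With the replicate number as a block the counts were 1153, 1436 and 907, and the counts among the 10 genes were the same. The numbers do not pair the arrays: deviations of arrays with the same number correlated at -0.035 to 0.026. Dim signals limit Nr4a2 and Nr4a3.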

Other observations

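Gadd45a and Gadd45b, genes of stress sensors, fell in GRK-Inh-transgenic hearts. Gadd45a had signals of 358 and 376 in these hearts, 921 and 815 in control and 775 and 846 in RKIP-transgenic hearts. It fell by 1.14 ± 0.090 with GRK-Inh (adjusted p = 1.6e-05) and differed by -0.092 with RKIP (adjusted p = 0.578). Gadd45b fell by 0.91 with GRK-Inh (adjusted p = 0.00658), from control signals of 332 and 562 to 202 and 211. The control arrays of Gadd45b lay far apart, and its RKIP signals of 324 and 330 were close to the lower of them. Between the lines Gadd45b was not called (0.56, adjusted p = 0.0874). Gadd45g was not called with GRK-Inh (0.22, adjusted p = 0.308). Gadd45b and Gadd45g were named after their values had been seen.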
